A study of Mus musculus with 6 samples.

Results

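The genes examined here encode the folding machinery of the endoplasmic reticulum (ER), the proteins that remove misfolded chains from it, and the sensors of ER stress. They are 35 genes chosen by name and function, out of 54532 genes in the deposited table, and all 35 were found in it. RNA sequencing was performed on MC3T3-E1 cells, a pre-osteoblast line from mouse calvaria that lays down a mineralizing collagen matrix. All 6 samples were kept in osteogenic medium, which contains β-glycerophosphate, ascorbic acid and dexamethasone. The control group, with 3 samples, received this medium alone, and the metformin group, also with 3 samples, received 0.2 mM metformin, a biguanide used to lower blood glucose. Per the paper the cells were induced for 3 days, the dose and the time being given by the paper and not by the sample labels. The labels do not say whether the samples of a group came from separate cultures, and the paper calls them biological replicates.

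Secreted and membrane proteins, among them the collagens that osteoblasts release in bulk, are translocated into the ER, where chaperones hold them, lectin chaperones retain their sugar-bearing forms, and disulfide and prolyl isomerases finish the fold. When unfolded chains build up, the membrane sensors IRE1 (gene Ern1), PERK (Eif2ak3) and ATF6 (Atf6) start the unfolded protein response. IRE1 splices the mRNA of the transcription factor XBP1, ATF6 is cut to release a transcription factor, and PERK phosphorylates a translation initiation factor. These activating steps leave no trace in gene level values, so the levels below are amounts of mRNA and not sensor activity.

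The values are FPKM, reads scaled by gene length and by an effective library size. That size was not the read total of the sample, being 19655718 against 18792236 reads in control replicate 3. The reads behind the values totalled between 18399861 and 22111790 per sample, and the tested genes of interest held between 279 and 21863 reads each in a sample. The mRNA of osteoblast markers was present in all samples, with all 10 listed markers above 0.5 FPKM. The 4 muscle markers summed to at most 0.427 FPKM, with Myod1 and Myog at 0 throughout. The 4 endothelial markers summed to at most 0.131 FPKM in any sample. The 4 macrophage markers summed to between 1.97 and 2.18 FPKM in the controls and at most 1.35 FPKM with metformin. This sum was mostly Cd68, with means of 2.04 and 1.17 FPKM, which was lower by the test described below. Csf1r, too low to be tested, was higher in every metformin sample, at means of 0.017 and 0.060 FPKM. The 5 adipocyte markers summed to 7.76 to 12.1 FPKM in the controls and at most 9.54 FPKM with metformin, mostly from Cebpa and Fabp4 and with Cidec at 0, and the 4 chondrocyte markers to 26.6 to 39.9 and 28.7 to 30.4 FPKM, mostly from Sox9 and Col2a1. Of the 10 osteoblast markers, 2 were higher with metformin, 3 were lower and 5 were not called by the test described below. Over all tested genes 13.2% were called higher and 9.28% lower. Col1a1 and Col1a2, the chains of type I collagen, had control means of 1339 and 970 FPKM and metformin means of 2487 and 1444 FPKM, whereas Spp1 had 7703 and 2704 FPKM, and Ibsp and Dmp1 were the other lower markers. The part of these shifts in the results below was not tested. Control replicate 1 stood apart, with a correlation of 0.96 and 0.952 with the other controls across genes (log2 values), which had 0.988 with each other. Across 12663 genes its deviation from the other controls followed transcript GC content, at a Spearman correlation of -0.67. For control replicates 2 and 3 this correlation was 0.41 and 0.64, each against a mean that includes replicate 1, and for the metformin samples it lay between -0.22 and 0.13. For several genes below, values without this library are therefore given as well, but not for all. The log2 fold change of Col1a1 was 0.93 with all samples and 0.69 without control replicate 1.

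Of the 35 genes, 34 had a mean of at least 0.5 FPKM and were tested. With metformin 4 of them were higher and 3 were lower, and the other 27 did not pass the test, which does not show that they were unchanged (adjusted p-value under 0.05 by limma with an intensity trend on log2(FPKM + 1), Benjamini-Hochberg adjustment over all tested genes). The genes that rose were Hsp90b1, Canx, Calr and Txndc5, which encode folding factors of the ER lumen or membrane. The genes that fell were Dnajb9, Xbp1 and Ern1. The 7 calls amount to 20.6% of the tested genes of this group, against 22.5% called over all tested genes, 13.2% higher and 9.28% lower, so the number of calls was close to that of the transcriptome. The median log2 fold change of the group was 0.023, beside 0.0053 for all tested genes. For 12 of the 34 genes every metformin sample exceeded every control (35.3%, against 23.6% of all tested genes) and for 6 every metformin sample lay below every control (17.6%, against 20.5%). In these bulk libraries, fewer cells of a type and less RNA per cell cannot be told apart.

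**Figure D1:**
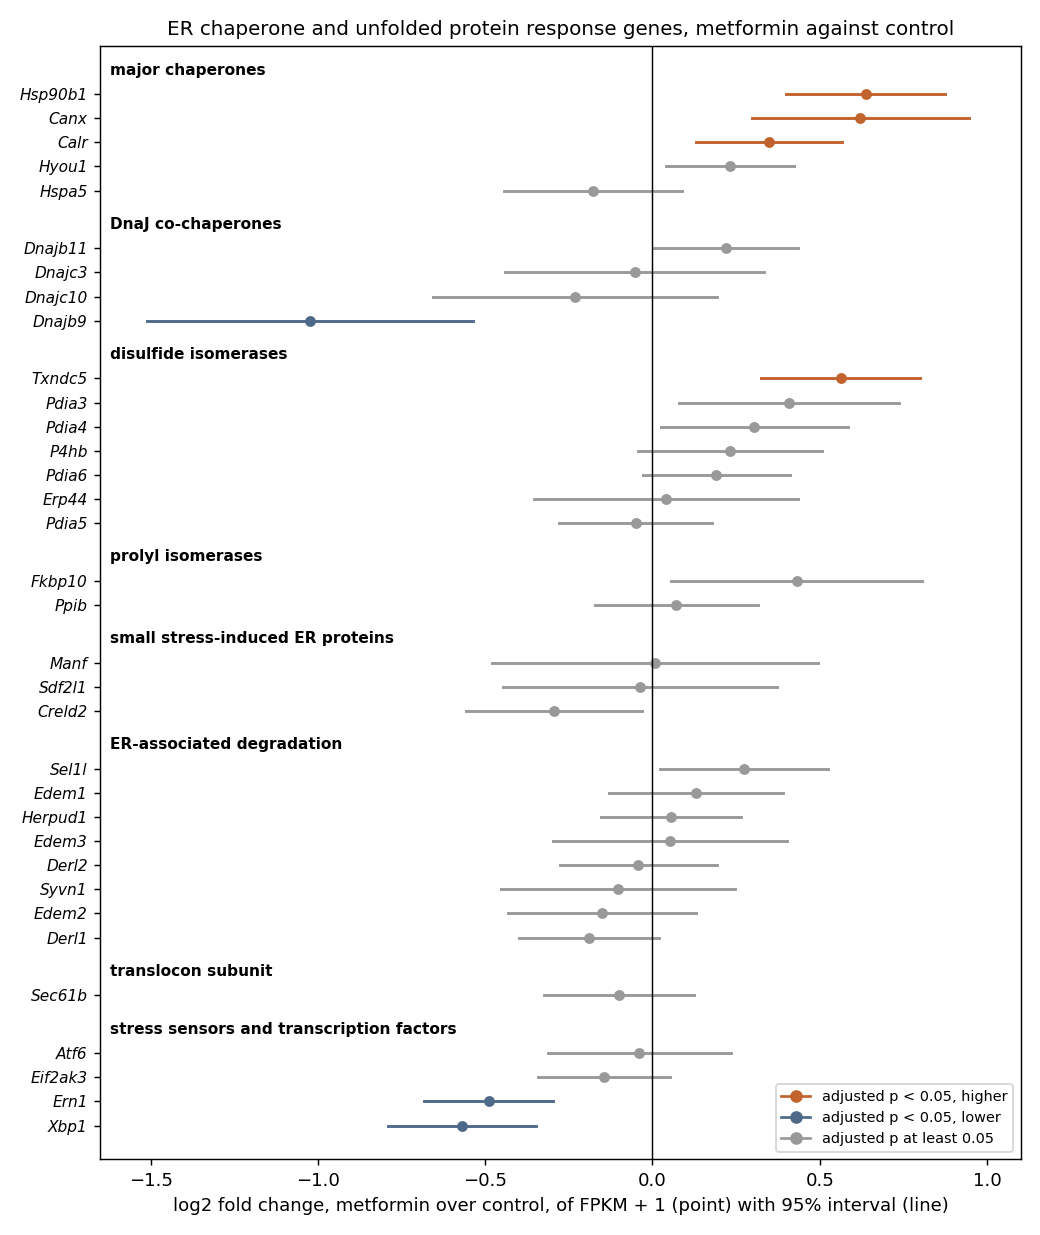
Log2 fold change of FPKM + 1, metformin over control, for the 34 tested genes by role, with 95% intervals from limma (3 samples per group). Hsp90b1, Canx, Calr and Txndc5 lie to the right of 0 with an adjusted p-value under 0.05, and Dnajb9, Ern1 and Xbp1 to the left, whereas the genes of ER-associated degradation cluster around 0.

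The major chaperones did not move as a block. Hsp90b1 (chromosome 10, 86690209 to 86705509, minus strand), which encodes GRP94, the HSP90 of the ER, had 117, 109 and 97.2 FPKM in the controls and 163, 168 and 172 FPKM with metformin. Each metformin sample exceeded each control, and the ratio of the means was 1.56 (0.64 on the log2 scale with a standard error of 0.10, adjusted p = 0.00548 by limma). Leaving out any 1 of the 6 samples kept the call, with log2 fold changes of 0.57 to 0.70. Exons of 3 other genes cover 632 of its 4032 exonic bases, the most abundant of which, 1810014B01Rik, reached 1.92 FPKM. The libraries do not mark strand, so reads of such shared stretches cannot be told apart.

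Canx and Calr encode calnexin and calreticulin, the membrane-bound and soluble lectin chaperones that hold glycoproteins until they are folded. Canx (chromosome 11, 50293961 to 50325673, minus strand) measured 83.1, 67.6 and 58.2 FPKM in the controls and between 106 and 107 FPKM in all 3 metformin samples. The rise was 1.53-fold in means (0.62 on the log2 scale with a standard error of 0.14, adjusted p = 0.0197 by limma), and the spread lay almost wholly in the controls. Without control replicate 1 the log2 fold change was 0.75 (adjusted p = 0.000508 by limma), without control replicate 2 it was 0.61 (adjusted p = 0.0648), and without any single metformin replicate the adjusted p lay between 0.0783 and 0.0832, so that the call rested on having all 6 samples or on leaving out control replicate 1 or 3. Calr (chromosome 8, 84841850 to 84846934, minus strand) had 226, 247 and 221 FPKM in the controls and 303, 299 and 283 with metformin, without overlap. Its ratio of means, 1.27, was the smallest among the called genes that rose (0.35 on the log2 scale with a standard error of 0.09, adjusted p = 0.0366 by limma). The Calr call was lost without control replicate 3 (adjusted p = 0.0627) and without each metformin replicate (adjusted p between 0.113 and 0.172).

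Hspa5 (chromosome 2, 34771970 to 34777547, plus strand) encodes BiP, the HSP70 chaperone that binds unfolded chains and the lumenal parts of the sensors, and is the customary readout of ER stress. It had 251, 222 and 198 FPKM in the controls and 194, 203 and 192 FPKM with metformin. The groups overlapped, and without control replicate 1 the log2 fold change was -0.092. With all samples it was -0.18 with a 95% interval of -0.44 to 0.088 (adjusted p = 0.302 by limma). Its interval thus ends below the estimates for Hsp90b1 and Canx, although the difference between genes was not tested. Hyou1, which encodes a large HSP70-like chaperone that exchanges nucleotide on BiP, had 14.5 to 15.1 FPKM in the controls and 16.4 to 18.2 FPKM with metformin. These ranges do not overlap, but the gene missed the threshold (log2 fold change 0.23, adjusted p = 0.0847 by limma). Without control replicate 1 it passed, at a log2 fold change of 0.25. Summed over the 5 chaperones, the level was 647 ± 52.6 FPKM (SD, n = 3) in the controls and 783 ± 12.8 (SD, n = 3) with metformin.

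**Figure D2:**
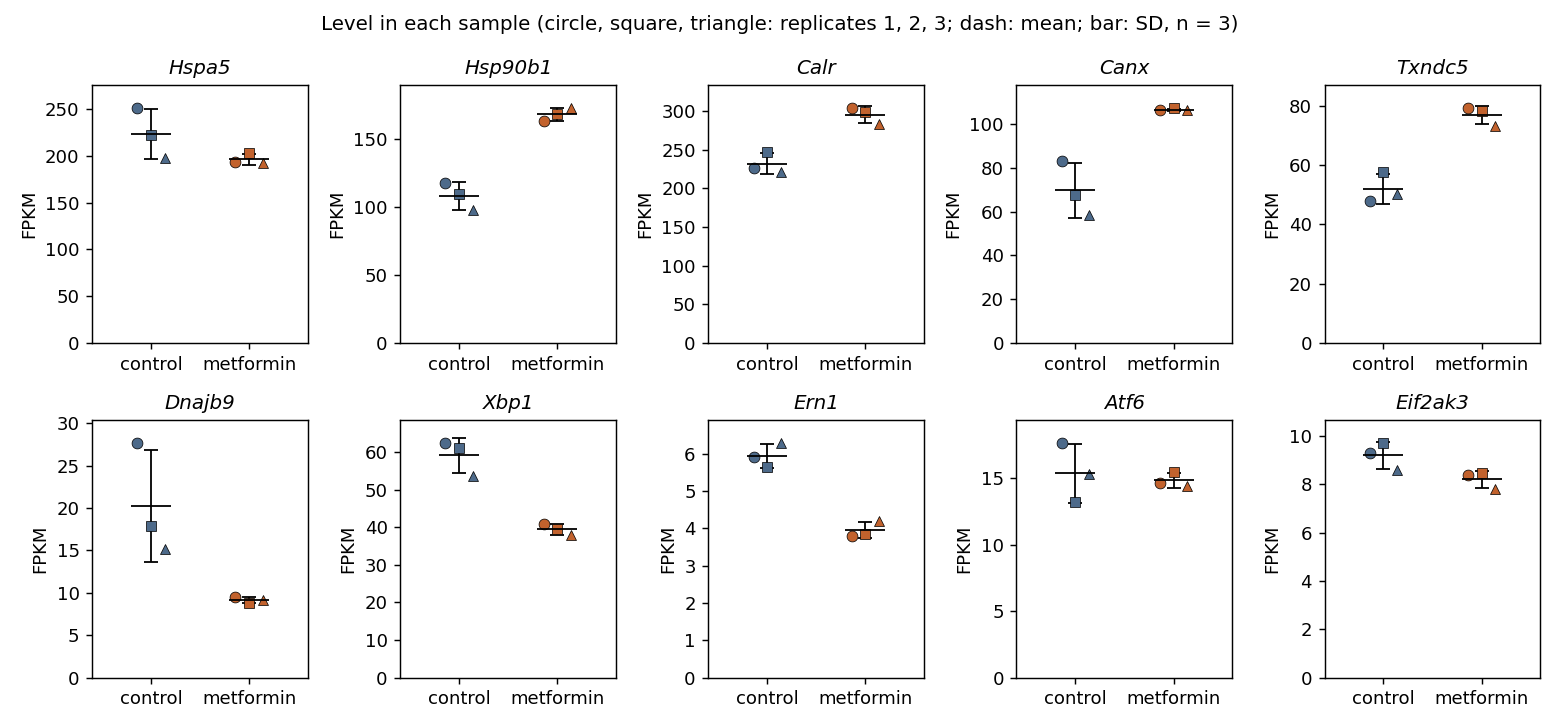
FPKM in each sample for the 7 genes that passed the test, for Hspa5, and for the sensors Atf6 and Eif2ak3, with axes from 0, the mean as a dash and the SD as a bar (n = 3 per group). The groups separate for Hsp90b1, Calr, Canx and Txndc5, which are higher with metformin, and for Dnajb9, Xbp1 and Ern1, which are lower, while Hspa5 and Atf6 overlap.

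The DnaJ proteins deliver unfolded chains to BiP and trigger its ATPase. Dnajb9 (chromosome 12, 44205559 to 44210326, minus strand), also known as ERdj4 and a recognized target of spliced XBP1, showed the largest change among the 34 genes in this fit. Its levels were 27.6, 17.9 and 15.2 FPKM in the controls and 9.49, 8.79 and 9.16 FPKM with metformin. Every metformin sample was below every control, and the log2 fold change was -1.02 (with a standard error of 0.20, adjusted p = 0.0137 by limma). Control replicate 1 held the highest value. Without it the log2 fold change was -0.79 and the adjusted p fell to 0.000659, and after each library was corrected for GC content it was -0.96 (adjusted p = 0.000866). The call was lost without any one of the metformin replicates (adjusted p between 0.0527 and 0.0615). The other co-chaperones were not called. Dnajb11, which assists BiP on nascent chains, had 33.9 to 40.1 FPKM in the controls and 43.0 to 44.1 with metformin, with a log2 fold change of 0.22 (adjusted p = 0.136 by limma). Dnajc3 and Dnajc10 had their highest values in control replicate 1, at 36.6 and 88.6 FPKM, where the other 5 samples ranged from 23.6 to 27.4 and from 54.6 to 61.1 FPKM. Dnajc10 is the reductase that opens wrong disulfides before degradation, and Dnajc3 encodes an inhibitor of PERK-type kinases that also serves as a co-chaperone.

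Among the 7 disulfide isomerases and related thioredoxin-fold proteins, 1 rose and 6 did not pass, beside 13.2% higher and 9.28% lower over all tested genes. Txndc5 (chromosome 13, 38500079 to 38528824, minus strand), an isomerase with several thioredoxin domains, measured 47.8, 57.5 and 50.3 FPKM in the controls and 79.1, 78.3 and 73.3 with metformin. The groups were well apart, at a ratio of means of 1.48 (0.56 on the log2 scale with a standard error of 0.10, adjusted p = 0.0087 by limma). Without metformin replicate 1 or 2 the adjusted p was 0.0551 and 0.0526, just beyond the threshold. Exons on the opposite strand, of Bmp6 and Gm31834, cover 535 of its 4492 exonic bases, and neither exceeded 0.172 FPKM. P4hb, which encodes the classical disulfide isomerase and the β-subunit of collagen prolyl 4-hydroxylase, was the most abundant gene of the group in both conditions, at 295 ± 36.6 FPKM (SD, n = 3) and 345 ± 5.18 (SD, n = 3). Its samples did not overlap, yet the log2 fold change of 0.23 missed the threshold. Pdia3, the partner of calnexin and calreticulin in glycoprotein folding, had 241, 193 and 170 FPKM in the controls and 262 to 268 FPKM with metformin. The log2 fold change was 0.41 (adjusted p = 0.0786 by limma), and it passed without control replicate 1, at 0.54, as well as with the GC correction, at 0.38. Pdia4 and Pdia6 also lay higher in every metformin sample, with log2 fold changes of 0.30 and 0.19. Pdia5 and Erp44, the latter a retention factor of the early secretory pathway, overlapped between the groups, with log2 fold changes of -0.050 and 0.039. The summed level of the 7 genes was 745 ± 72.4 FPKM in the controls and 913 ± 15.8 FPKM with metformin (SD, n = 3 each).

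The prolyl isomerases Ppib and Fkbp10 act on collagen chains, and neither passed the test. Fkbp10, which encodes FKBP65, a collagen chaperone, had 67.7, 101 and 94.1 FPKM in the controls and 116, 121 and 113 FPKM with metformin. All metformin samples were above the controls, at a log2 fold change of 0.43 with a 95% interval of 0.055 to 0.81 (adjusted p = 0.0989 by limma). Control replicate 1 was its lowest sample, and the gene passed without that sample at a log2 fold change of 0.26. Ppib, which encodes cyclophilin B, ranged from 28.3 to 34.8 FPKM over all 6 samples. Of its 3305 exonic bases 825 are shared with Snx22 on the opposite strand, a gene with at most 0.165 FPKM.

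Sdf2l1, Manf and Creld2 encode small ER proteins that are induced strongly by ER stress. None of the 3 was called in either direction, beside 13.2% higher and 9.28% lower over all tested genes. Creld2 had 33.1, 42.2 and 35.8 FPKM in the controls and 30.2, 31.0 and 28.4 with metformin. It lay lower in all metformin samples without passing the test (log2 fold change -0.29, adjusted p = 0.105 by limma). Manf, a secreted factor that stabilizes BiP complexes, ranged from 18.9 to 34.7 FPKM among the controls and from 25.6 to 27.4 FPKM with metformin, and Sdf2l1, a cofactor of BiP and its DnaJ partners, from 13.8 to 22.1 and from 17.5 to 18.5 FPKM. For both the metformin samples fell inside the range of the controls, whose lowest value was again that of replicate 1. Without control replicate 1, where 20.4% of all tested genes were called lower, Creld2 and Sdf2l1 were lower.

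None of the 8 tested genes of ER-associated degradation passed, beside 22.5% called over all tested genes. Without control replicate 1, where 43.8% of all tested genes were called, Sel1l, Edem1 and Edem3 were higher and Syvn1 and Edem2 lower. Syvn1 encodes the ubiquitin ligase HRD1 and Sel1l its partner in the membrane, Herpud1 a scaffold of that complex, Derl1 and Derl2 members of the channel through which chains leave, and Edem1, Edem2 and Edem3 the mannosidase-like proteins that mark glycoproteins for removal. Their log2 fold changes ran from -0.19 for Derl1 to 0.27 for Sel1l, with a median of 0.0043. Sel1l had 14.7 to 18.7 FPKM in the controls and 19.1 to 20.7 FPKM with metformin (adjusted p = 0.112 by limma), and Derl1 had 43.6, 49.2 and 42.9 FPKM in the controls and at most 40.02 FPKM with metformin (adjusted p = 0.176). A transcript of Gm35638 matches Derl1 at 95.4% identity over 652 bases, so its reads may be shared. These 2 genes did not overlap between the groups, and the other 6 did. Herpud1, which responds to several arms of the stress response, lay between 34.4 and 39.7 FPKM in all samples. The summed level of the 9 genes of this role was 187 ± 6.08 FPKM in the controls and 186 ± 1.68 FPKM with metformin (SD, n = 3 each). Derl3 had between 1 and 10 reads in a sample, at most 0.258 FPKM, and was not tested. Sec61b, a subunit of the channel through which new chains enter the ER, ranged from 57.6 to 67.9 FPKM without separation of the groups (log2 fold change -0.10, adjusted p = 0.495 by limma).

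Of the 3 sensors and XBP1, 2 genes were lower, beside 9.28% lower over all tested genes. All 4 log2 fold changes were below 0, but that of Atf6 was 0.058 without control replicate 1. Xbp1 (chromosome 11, 5520659 to 5525893, plus strand), the substrate of IRE1 and the transcription factor of that arm, had 62.4, 61.2 and 53.7 FPKM in the controls and 40.8, 39.5 and 38.0 with metformin. The metformin mean was 0.667 of the control mean, without overlap (-0.57 on the log2 scale with a standard error of 0.09, adjusted p = 0.00631 by limma). Ern1 (chromosome 11, 106394650 to 106487852, minus strand), which encodes IRE1α, had 5.90, 5.64 and 6.28 FPKM in the controls and 3.80, 3.84 and 4.19 FPKM with metformin. Its metformin mean was 0.664 of the control mean (-0.49 on the log2 scale with a standard error of 0.08, adjusted p = 0.00679 by limma). Both calls were kept whichever of the 6 samples was left out, with log2 fold changes of -0.64 to -0.53 for Xbp1 and of -0.52 to -0.45 for Ern1. Control replicate 1 did not stand apart for either gene, deviating from the other controls by 0.12 for Xbp1 and by -0.012 for Ern1 on the log2 scale. Eif2ak3, the gene of PERK, had 9.31, 9.70 and 8.57 FPKM in the controls and 8.37, 8.46 and 7.81 with metformin. Its samples were separate by a narrow margin and did not pass the test (log2 fold change -0.14, adjusted p = 0.258 by limma). Atf6 had 17.6, 13.2 and 15.3 FPKM in the controls and 14.6, 15.5 and 14.4 with metformin, with overlap (log2 fold change -0.039, 95% interval -0.31 to 0.23). The summed level of these 4 genes was 89.6 ± 5.66 FPKM in the controls and 66.4 ± 1.75 FPKM with metformin (SD, n = 3 each). Most of this sum was Xbp1, with means of 59.1 and 39.4 FPKM, so it says little about the 3 sensors.

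The promoters of these genes are known for short elements through which ATF6 and XBP1 act, and they are printed here because genes that share an element had unlike fold changes. RefSeq (GRCm38.p6) gave promoters, 250 bases before to 50 bases after the transcription start, for 30 of the 35 genes. The ER stress response element (ERSE), CCAAT followed after any 9 bases by CCACG, was searched on both strands and found in 9 of the 30 genes (30.0%), against 37 of 27025 genes (0.137%) with a promoter in RefSeq. ERSE-II, ATTGG, any base and CCACG, was in 2 of the 30 (6.67%, against 0.0444%), and the unfolded protein response element (UPRE), TGACGTGG, in 1 (3.33%, against 0.714%). The C/EBP-ATF element TGATGNAA, through which ATF4 acts, was in 2 (6.67%, against 4.51%). These motifs overlap in part, since the ERSE and ERSE-II share CCACG and the UPRE holds its reverse complement. In the lines that follow the matches to ERSE, ERSE-II and UPRE are shown for all of these genes but Derl3 and Dnajb11, each match in capitals with 5 bases on either side, written 5′ to 3′ along the gene's own strand. A match that begins with CGTGG is an ERSE on the opposite strand. RefSeq gave several promoters for Txndc5, of which not all held the UPRE, and its match lies inside the gene span given above.

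Hsp90b1, ERSE, chr10:86705633-86705661, minus strand: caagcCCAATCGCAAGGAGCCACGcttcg
Hsp90b1, ERSE, chr10:86705528-86705556, minus strand: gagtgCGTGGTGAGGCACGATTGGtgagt
Canx, ERSE, chr11:50325795-50325823, minus strand: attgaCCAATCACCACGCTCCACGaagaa
Calr, ERSE, chr8:84847070-84847098, minus strand: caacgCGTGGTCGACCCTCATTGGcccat
Pdia6, ERSE, chr12:17266486-17266514, plus strand: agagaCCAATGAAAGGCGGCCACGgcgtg
Dnajc3, ERSE, chr14:118937822-118937850, plus strand: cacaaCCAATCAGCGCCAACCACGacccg
Syvn1, ERSE, chr19:6046527-6046555, plus strand: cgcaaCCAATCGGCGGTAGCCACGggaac
Hspa5, ERSE, chr2:34772020-34772048, plus strand: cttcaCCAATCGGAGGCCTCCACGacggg
Creld2, ERSE, chr15:88819515-88819543, plus strand: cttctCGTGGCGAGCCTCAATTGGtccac
Herpud1, ERSE-II, chr8:94386372-94386392, plus strand: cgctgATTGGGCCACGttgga
Txndc5, UPRE, chr13:38528040-38528057, minus strand: gccgcTGACGTGGcgcta

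The lines for the ERSE run from the gene with the highest log2 fold change to the gene with the lowest. Of the 8 tested genes with an ERSE, 3 were higher with metformin, none was lower and 5 were not called, beside 13.2% higher and 9.28% lower over all tested genes, with log2 fold changes from 0.64 for Hsp90b1 to -0.29 for Creld2 and a median of 0.069. Of the 21 tested genes whose RefSeq promoters lacked an exact match, 1 was higher, Txndc5, and 3 were lower, with a median of 0.039, close to the other. Among these genes Dnajb11 and Herpud1 held an ERSE-II and Txndc5 a UPRE, and elements with a mismatch were not sought. An ERSE stood upstream of the RefSeq start of Hsp90b1, whose controls and metformin samples were wide apart, and of Hspa5, where they overlapped. The Hspa5 match lies inside the span given above for that gene, which begins further upstream than the RefSeq start. No ERSE, ERSE-II or UPRE was found in these windows of Dnajb9, Xbp1 and Ern1, the genes that fell. The same held for most of the genes with a RefSeq promoter, among them P4hb, Pdia3, Sel1l and Edem1, which were not called. A match is a description of letters and was not tested for binding.

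**Figure D3:**
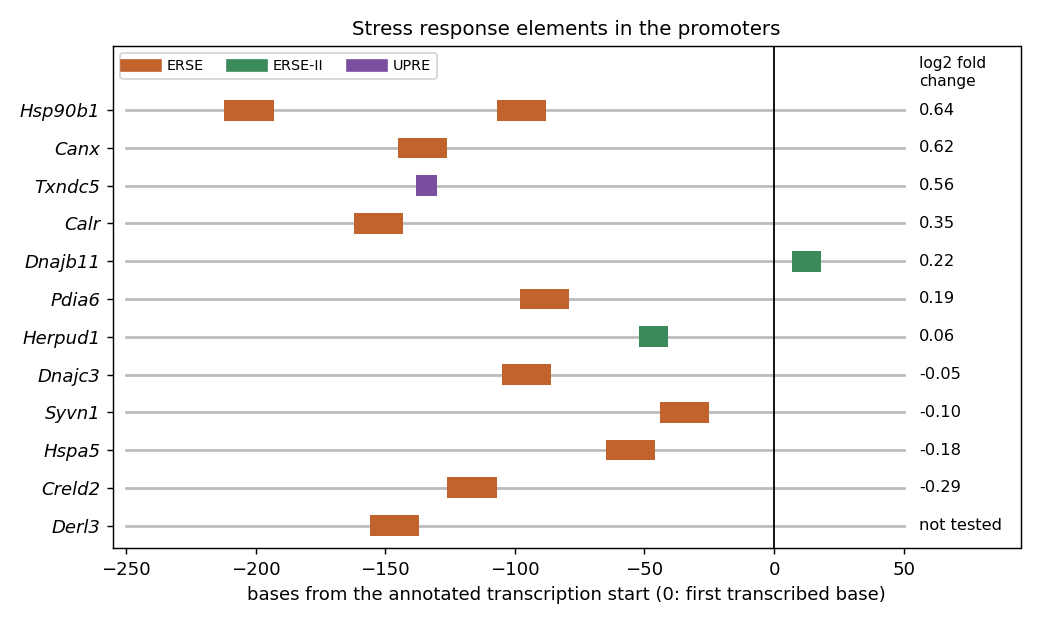
Positions of ERSE, ERSE-II and UPRE matches relative to the RefSeq transcription start, in bases, for the 12 genes that hold one, ordered by their log2 fold change (numbers at the right, metformin over control). Hsp90b1, Canx and Calr at the upper end and Hspa5 and Creld2 at the lower end each carry an ERSE upstream of the start.

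The spread within a group was wider among the controls. The median coefficient of variation of the 34 genes was 12.3% in the controls and 3.60% with metformin, beside 17.1% and 5.47% over all tested genes. Control replicate 1 was the highest of the controls for 18 of the 34 genes and the lowest for 11. Its deviation followed GC content across these genes too (Spearman correlation -0.73 over 34 genes, which share the same libraries). Dnajb9, with a GC content of 40.6%, lay 0.71 above the other controls on the log2 scale, and Fkbp10, with 57.4%, lay 0.52 below them. The fold change itself had a Spearman correlation of -0.092 with GC content over the same genes. Without this sample 12 genes were higher and 7 were lower, which is 55.9% of the 34, against 43.8% of all tested genes in that fit (23.4% higher and 20.4% lower). The 7 genes called with all samples were called there too, and the added ones were Hyou1, P4hb, Pdia3, Pdia4, Fkbp10, Sel1l, Edem1 and Edem3, which were higher, and Sdf2l1, Creld2, Syvn1 and Edem2, which were lower. With the GC correction 8 genes were higher and 4 lower (35.3%, against 35.2% of all tested genes, 19.2% higher and 16.0% lower).

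**Figure D4:**
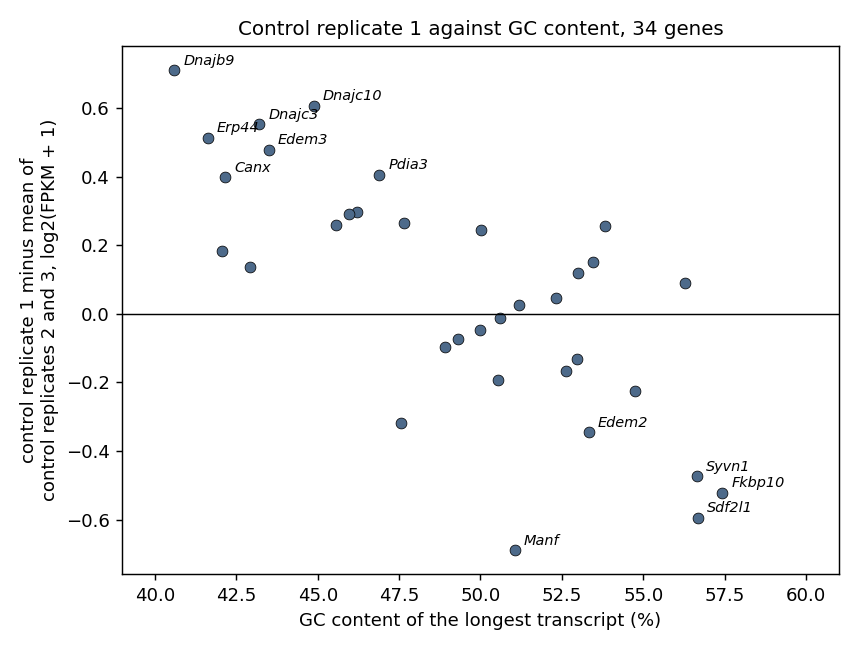
Deviation of control replicate 1 from the mean of the other controls, in log2(FPKM + 1), against the GC content of the longest transcript of each of the 34 tested genes. Dnajb9, Dnajc10, Dnajc3 and Erp44, at low GC content, lie above 0 and Fkbp10, Sdf2l1 and Syvn1, at high GC content, lie below it.

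**Figure D5:**
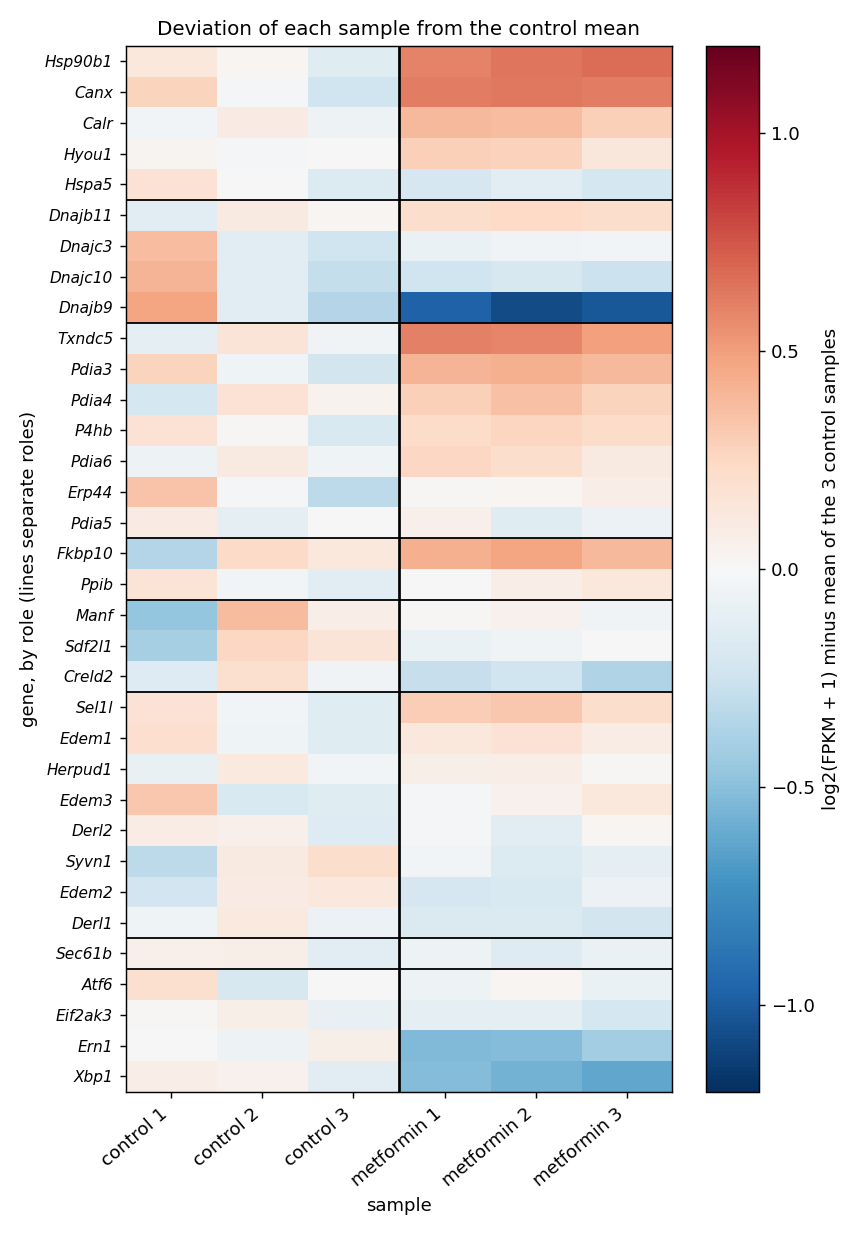
Deviation of each sample from the mean of the controls in log2(FPKM + 1), with the 34 tested genes grouped by role and the samples in columns. The 3 metformin columns resemble each other, with Hsp90b1, Canx and Txndc5 high and Dnajb9, Xbp1 and Ern1 low, whereas the control columns differ, with replicate 1 opposite to the others for Manf, Sdf2l1 and Fkbp10.

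Other genes of protein folding, secretion and stress responses, in the ER and outside it, were taken from lists of function, of which 175 were tested, with 15 higher and 11 lower (14.9% called, against 22.5% of all tested genes). Of 35 further folding factors 6 were higher and 1 was lower, Cnpy2. Among them were Serpinh1, the collagen chaperone HSP47, with 461 ± 82.8 FPKM in the controls and 692 ± 21.3 with metformin (SD, n = 3 each, log2 fold change 0.60, adjusted p = 0.0299 by limma), and Uggt1, the folding sensor that returns glycoproteins to calnexin and calreticulin, with 17.1 ± 1.26 FPKM with metformin (log2 fold change 0.61, adjusted p = 0.0288). Of 34 genes of translocation, signal cleavage and N-glycosylation 2 were higher, namely Rpn2 (log2 fold change 0.67, adjusted p = 0.00696) and Stt3b (0.43, adjusted p = 0.0232), subunits of the oligosaccharyltransferase, and 1 was lower, Sec11a. Of 28 further degradation factors none was higher and 3 were lower, namely Selenok (-0.48), Rnf185 (-0.45) and Selenos (-0.43). Of 24 genes of transport from the ER to the Golgi 1 was higher, Sec24d, at a log2 fold change of 0.35.

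The counts of the next lists stand beside 13.2% higher and 9.28% lower over all tested genes. Of 17 further transducers and regulators of the unfolded protein response 2 were higher and 2 were lower. Nfyc, a subunit of the factor that binds CCAAT in the ERSE, rose by 0.52 on the log2 scale, and Traf2, an adaptor of IRE1, fell by 0.50. Wfs1 was the other higher gene and Creb3 the other lower one. In the ATF4 arm, downstream of PERK and of other kinases, 2 of 12 genes were higher and 4 lower. Ddit3, which encodes the stress factor CHOP and stands in the table under a pair of identifiers of which the more abundant was used, went from 35.4 ± 11.4 to 14.9 ± 0.93 FPKM (SD, n = 3 each, log2 fold change -1.15, adjusted p = 0.0129 by limma), Nupr1 had a log2 fold change of -1.23 and Chac1 one of 1.58, and Atf4 itself was not called (0.40, adjusted p = 0.345). Asns was the other higher gene, and Atf3 and Vldlr were the other lower ones. Outside the ER, 2 of 14 cytosolic heat shock genes were higher, Stip1 (0.62) and Dnajb4 (0.33), and none was lower. Hspa8, the constitutive cytosolic HSP70, had a log2 fold change of 0.25 (adjusted p = 0.217 by limma). None of 11 mitochondrial chaperones and proteases passed in either direction by limma, at an adjusted p-value under 0.05. Among the called genes given with values in these lists, Rpn2 and Chac1 kept their call whichever of the 6 samples was left out, and the others lost it in at least 2 of those 6 fits. Sec11a, Cnpy2, Selenos, Wfs1, Creb3, Asns, Atf3 and Vldlr were named after their values were seen.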

How the data were processed

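Libraries were made with an Illumina TruSeq RNA kit that does not mark strand. The authors deposited 1 table whose header names no unit. Its values were identified as FPKM, because multiplying a value by the gene length that the authors list gave, in each sample, whole multiples of a constant (within 0.01 reads) for 100% of nonzero values. Reads were recovered from these steps. The authors tested with DESeq2, and their aligner is not given in the sources used here beyond the processing notes, which list Bowtie 0.12.2 with the builds mm8 and mm9. Of 54532 identifiers, 53499 have the coordinates of GENCODE M21 (GRCm38). The columns were matched to samples by their labels, and 0 other columns of per-sample values were found.

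Groups were compared with limma 3.58.1 (R 4.3.3) with an intensity trend on log2(FPKM + 1). Genes averaging at least 0.5 FPKM entered (12681 genes), and tests were two-sided with Benjamini-Hochberg adjustment and a threshold of 0.05. The pseudocount of 1 shrinks fold changes where levels are low. P-values measure only the spread between these samples. A share of 3 reads, at most 1.6e-05% of a sample, was set as a floor, which covers counting error only. This floor was not used to filter or test genes, and lower counts are printed, such as 1 read of Derl3. GC content came from the longest GENCODE M21 transcript, available for 99.9% of the tested genes. Near-identical transcripts were sought with BLAST+ 2.17.0. The fits were tested on simulated data.

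The genes and lists were chosen with earlier results of these data known. Of 189 listed pathway symbols 181 were in the table. All 35 genes are named. Outside them, the 2 called genes with the largest change per list are named, with Atf4, Ddit3 and Hspa8. Members with calls, and the 4 sensors and transcription factors, are given in every sample. The alternatives tried were scaling by total reads, a pseudocount of 0.1, a minimum of 10 reads per sample, no filter, a replicate block, leaving out each sample, voom on the recovered reads and a GC correction (a spline with 5 degrees of freedom per library). Figures were drawn with matplotlib 3.10.9.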

Additional observations from a re-analysis of the deposited data

How the results depend on the processing

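Of the called genes, Hsp90b1, Xbp1, Ern1, Canx, Txndc5 and Dnajb9 kept direction and call under every alternative that used all 6 samples, and Calr lost its call with the replicate block (adjusted p = 0.122 by limma), with that block and the GC correction (0.0551) and with no filter (0.0887). Same-numbered samples did not deviate together (correlations of -0.053, 0.00027 and -0.055), so the numbers were not taken as pairs. With the replicate block 3 ER genes were higher and 3 lower, against 4 and 3 (17.6% called, against 14.7% of all tested genes). With the GC correction 8 were higher, and leaving out a sample gave 1 to 12 higher and 2 to 7 lower, the most without control replicate 1 and the fewest without a metformin replicate. Over all genes, 1670 were higher and 1177 lower, the lower being 698 with the replicate block and 2029 with the GC correction. Leaving out a sample gave 938 to 2969 higher and 495 to 2590 lower. The listed pathway genes were 15 higher and 11 lower. The higher were 9 with no filter, 5 with the replicate block, 35 with the GC correction and 24 with both. The lower were 6 with the replicate block and 22 with the GC correction. Leaving out a sample gave 2 to 53 higher and 2 to 29 lower. The cause was not tested. Among the 34 genes, signs changed only for some not called with all 6 samples. Manf was -0.020 with scaling by total reads. When a sample was left out, log2 fold changes ranged from -0.22 to 0.20 for Manf, -0.17 to 0.13 for Dnajc3, -0.11 to 0.00039 for Pdia5, -0.12 to 0.21 for Erp44, -0.24 to 0.086 for Sdf2l1, -0.26 to 0.0028 for Syvn1, -0.12 to 0.0026 for Derl2, -0.038 to 0.21 for Edem3 and -0.14 to 0.058 for Atf6. The tested genes had at least 279 reads in every sample, and the effect of another depth on their calls was not tested. Derl3 had at most 10 reads and was not compared.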
